A study of Daphnia magna with 48 samples.

Results

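Daphnia magna, a planktonic freshwater crustacean widely used in toxicity testing, was compared after 4 days of copper exposure and after 4 days as unexposed control, in RNA from whole bodies. The comparison uses 8 of the 48 RNA sequencing libraries of a study of copper, arsenic and their mixture: 4 libraries labelled copper and 4 labelled control, taken by their treatment and day labels. The animals of all groups derived from a field population and were cultured in M4 medium under a light and dark cycle with daily food. Neither the copper dose nor the age of the animals nor how many went into a library is given by the labels. Nor do they say that replicates were separate cultures, so a p-value here measures the spread between libraries, and that spread may be technical.

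Copper is an essential cofactor of respiratory and antioxidant enzymes and is toxic in excess, when it disturbs sodium uptake in freshwater crustaceans and promotes reactive oxygen species. Animal cells hold free copper low with transporters, chaperones and metallothioneins, small cysteine-rich proteins that bind metals and whose genes are typically induced by them. In a whole body, fewer cells of a type and less RNA per cell cannot be told apart. The gene identifiers of the table, such as Dapma7bEVm028938t1, matched 0 entries of the reference gene table used here. No gene below is therefore given a name, function, position or sequence, and whether the genes that responded belong to these copper-handling systems was not tested. For the same reason, genes whose reads could be split with a close paralog or an overlapping transcript could not be marked.

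The 4 copper libraries held 12266037 to 15749331 counts and the 4 controls 11845921 to 15826553 (exact permutation test, two-sided, p = 0.286). Levels are given in CPM, the usual per-library scaling of counts, with TMM-adjusted library sizes. The number of genes with no count was 37 to 50 in the copper libraries and 52 to 118 in the controls, without overlap (exact permutation test, two-sided, p = 0.0286, the smallest that 4 against 4 libraries can give). In the same permutation test the share of counts in the 10 most abundant genes gave p = 0.457 and the TMM factor p = 0.486. These p-values are not adjusted for the number of library measures. Across genes, the log-scale profiles of 2 libraries of the same group had a median correlation of 0.976, and those of a copper and a control library 0.973. The first principal component of the 8 libraries held 21.2% of the variance. Its extremes were control replicates 1 and 3, at -46.1 and 41.5, and the copper libraries lay between them at -7.70 to 15.9. On the second component (19.4%) the copper libraries lay at -26.4 to -1.69 and the controls at -10.9 to 35.6, with overlap. Control replicates 1 and 4 also carried 7 genes at levels far above the other libraries, so each of the 11 called genes below is given with and without them. Counts of separated genes, comparisons with arsenic and interval widths are given with all 4 controls only.

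Few genes passed the test. Of 15813 genes tested with edgeR's quasi-likelihood test, 11 passed an adjusted p of 0.05, which is 0.0696% of the genes tested. Of these, 3 were higher with copper (0.019%) and 8 were lower (0.0506%). In the 3 rises every copper library lay above every control. In 2 of the falls every copper library lay below every control. In 7 of the 8 falls, 1 of those 2 included, control replicates 1 and 4 stood far above the other 6 libraries. Over all tested genes, every copper library lay above every control in 234 (1.48%) and below every control in 213 (1.35%).

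**Figure D1:**
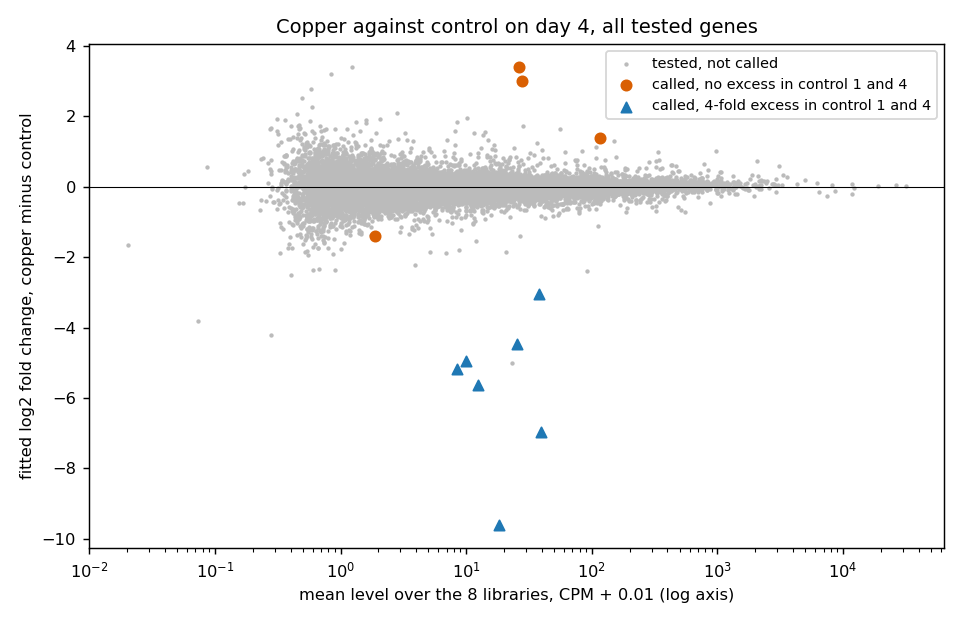
Fitted log2 fold change (copper minus control, day 4) of each of 15813 tested genes against its mean level over the 8 libraries on a log axis. The 3 called rises and the smallest called fall are circles, the 7 falls with an excess in control replicates 1 and 4 are triangles, and grey points did not pass the test.

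The gene with the largest called rise was Dapma7bEVm015179t1. Its levels in control replicates 1 to 4 were 2.94, 4.91, 5.36 and 4.87 CPM. In copper replicates 1 to 4 they were 47.3, 44.8, 47.0 and 52.8 CPM. The lowest copper library stood 8.35 times above the highest control, and the copper libraries were close to one another. The fitted rise was 10.6-fold with a 95% interval of 5.25 to 21.4 (log2 fold change 3.40, SE 0.50, edgeR adjusted p 2.53e-04, higher in 4 of 4 copper libraries). Without control replicates 1 and 4 the log2 fold change was 3.22 (SE 0.67). That fit, which kept the other groups of the study, gave an edgeR adjusted p of 0.188. A fit of the 6 remaining libraries of the comparison alone gave 2.28e-04.

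The second rise, in Dapma7bEVm028938t1, had the smallest p of all genes. Its control levels were 3.75, 5.33, 8.998 and 6.69 CPM in replicates 1 to 4. Its copper levels were 53.4, 39.8, 48.5 and 56.0 CPM, and the groups were again far apart, by 4.42 times between the nearest libraries. The fitted rise was 7.99-fold with a 95% interval of 4.83 to 13.2 (log2 fold change 2.999, SE 0.36, edgeR adjusted p 3.75e-06). It was the gene that passed the test in 22 of 22 alternative analyses. Without control replicates 1 and 4 its log2 fold change was 2.79 (SE 0.47, edgeR adjusted p 0.0106).

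The third gene that rose was more abundant and changed less. It stood at 52.8, 92.1, 46.3 and 68.2 CPM in control replicates 1 to 4. In copper replicates 1 to 4 it stood at 151, 168, 151 and 204 CPM. The groups did not overlap, and the nearest libraries were 1.64 times apart. The rise was 2.59-fold with a 95% interval of 1.72 to 3.91 (log2 fold change 1.38, SE 0.29, edgeR adjusted p 0.0466). The call was marginal: it passed in 1 of the 8 analyses that left out a single library of the comparison (without control replicate 2), and its log2 fold change stayed between 1.24 and 1.59 over all alternatives. Without control replicates 1 and 4 it was 1.28 (SE 0.38, edgeR adjusted p 0.999).

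**Figure D2:**
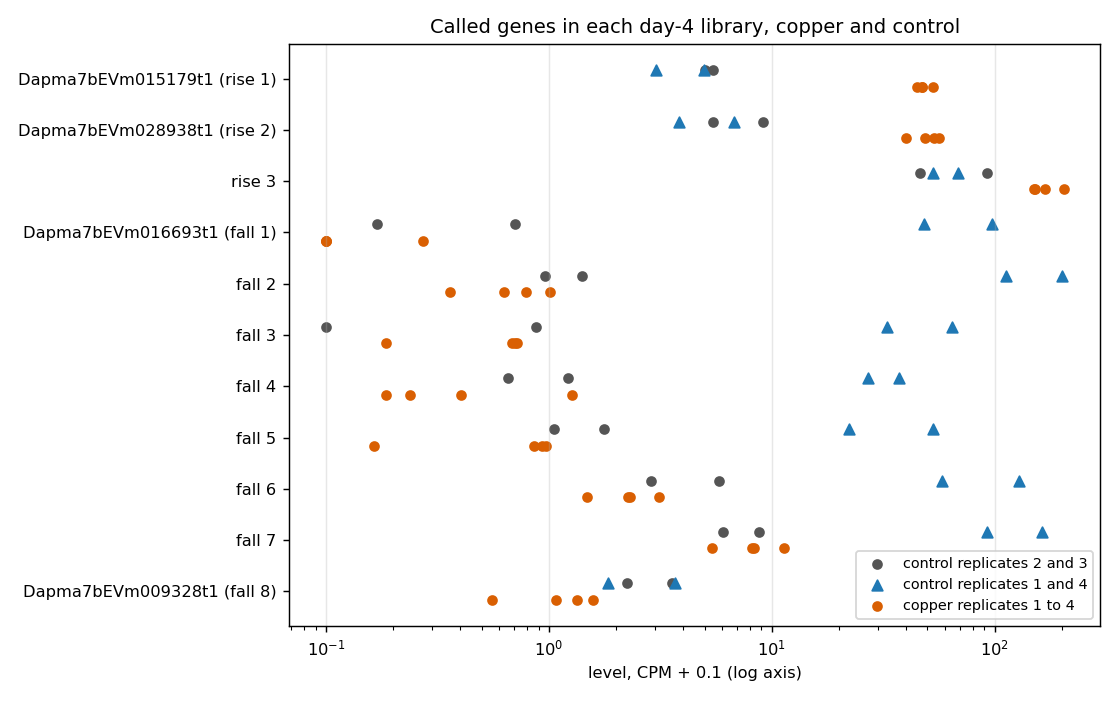
Level (CPM + 0.1, log axis) of each of the 11 called genes in the 4 control and 4 copper libraries of day 4, with genes ordered from the largest rise to the largest fall and then to the smallest fall. The 3 rises show copper points to the right of every control, while falls 1 to 7 show control replicates 1 and 4 far to the right, with control replicates 2 and 3 much nearer the copper libraries.

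The same genes were followed through the earlier exposures. On day 1 the levels of Dapma7bEVm015179t1 in copper replicates 1 to 4 were 8.63, 7.84, 7.79 and 5.26 CPM, each above the 4 controls, which ran from 0.163 to 3.87 CPM. The log2 fold change was 1.81 (SE 0.51) and did not pass the test (edgeR adjusted p 0.614). On day 2 its copper levels were 20.6, 3.83, 9.25 and 9.82 CPM against 3.15 to 6.44 CPM in controls (log2 fold change 1.14, SE 0.48, edgeR adjusted p 0.9997). Copper replicate 2 of day 2 lay within the control range, and the other 3 above it.

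For Dapma7bEVm028938t1 the copper levels on day 1 were 9.66, 8.31, 6.21 and 5.68 CPM against 2.89 to 5.49 CPM in controls. The copper libraries again lay above each control, narrowly (log2 fold change 0.93, SE 0.36, edgeR adjusted p 0.881). On day 2 they were 23.3, 5.70, 13.97 and 14.1 CPM against 6.01 to 8.69 CPM. Replicate 2 was again the low library and replicate 1 the highest (log2 fold change 1.04, SE 0.35, edgeR adjusted p 0.9997).

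The third gene had copper levels of 34.7 to 61.7 CPM on day 1 against 20.4 to 45.8 CPM in controls, so the groups overlapped (log2 fold change 0.38, SE 0.29, edgeR adjusted p 0.966). On day 2 its copper levels were 186, 52.3, 131.5 and 203 CPM against 61.4 to 112 CPM (log2 fold change 0.78, SE 0.29, edgeR adjusted p 0.9997). Replicate 2 of day 2 was thus the lowest copper library for all 3 genes. The difference between the copper effects of day 4 and day 1 was 1.59 (SE 0.69), 2.07 (SE 0.50) and 0.99 (SE 0.41) on the log2 scale for the 3 genes. None of these differences passed the test (edgeR adjusted p 0.9996, 0.558 and 0.9996).

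**Figure D3:**
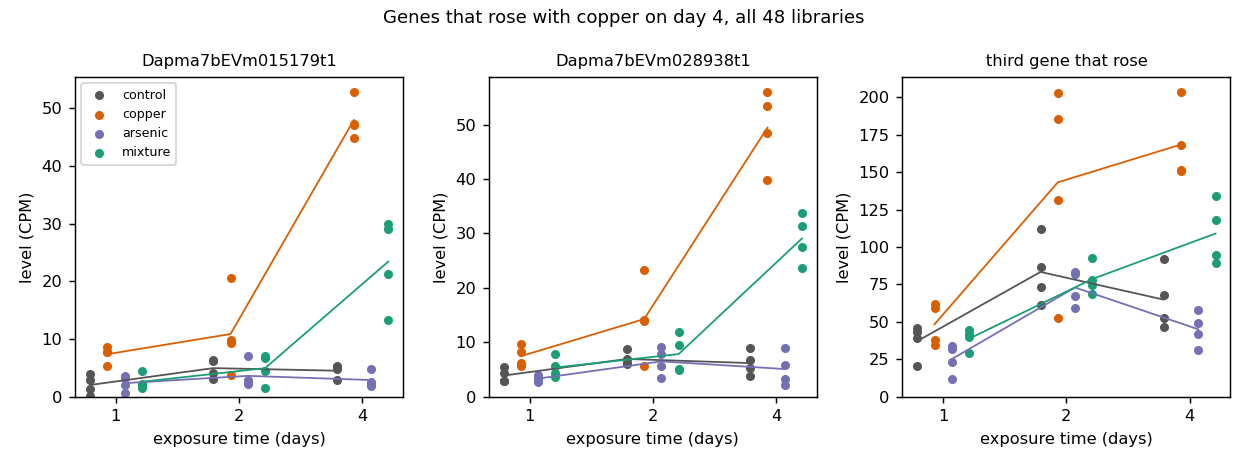
Level (CPM) of the 3 genes that rose with copper on day 4, in each of 48 libraries by exposure time, with lines through the means of 4 libraries. Copper points on day 4 lie above every control and arsenic point of the same day, and mixture points lie below them and above arsenic.

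Across all genes the earlier days gave few or no calls for copper, depending on the tool. On day 1 edgeR called 0 genes (0%), and 776 (4.91%) had an unadjusted p under 0.05. On day 2 it called 0 (0%), and 265 (1.68%) had such a p. With DESeq2 the calls were 1 and 2, and with limma voom 0 and 0. For the change of the copper effect from day 1 to day 4, and from day 2 to day 4, edgeR and limma voom also called 0 genes, with 494 (3.12%) and 339 (2.14%) under the unadjusted edgeR threshold. DESeq2 was not run on these differences.

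The 3 rises were then read in libraries that the comparison did not use. Mixture and arsenic libraries of day 4 differ in label by the presence of copper and share no library with copper against control. The labels give no doses. Whether arsenic was equal in both groups, or copper equal to that of the copper libraries, is therefore not known. For Dapma7bEVm015179t1 the mixture libraries stood at 13.4, 21.3, 29.1 and 29.9 CPM and the arsenic libraries at 2.63, 4.86, 2.24 and 1.89 CPM. The difference was 2.996 on the log2 scale (SE 0.50, edgeR adjusted p 0.00364). For Dapma7bEVm028938t1 they stood at 27.6, 23.6, 31.3 and 33.8 CPM against 2.13, 9.01, 5.90 and 3.34 CPM (log2 fold change 2.501, SE 0.36, edgeR adjusted p 2.33e-04). Both groups were again fully apart.

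For the third gene the mixture levels were 89.6 to 134 CPM and the arsenic levels 31.0 to 57.9 CPM. The log2 fold change was 1.27 (SE 0.29) and did not pass the test (edgeR adjusted p 0.162). Over all genes this comparison called 3, or 0.019%. Set against arsenic libraries in place of controls, the copper libraries of day 4 exceeded them in the 3 genes by 4.03 (SE 0.52), 3.27 (SE 0.36) and 1.90 (SE 0.30) on the log2 scale. All 3 passed (edgeR adjusted p 1.02e-05, 4.81e-07 and 3.88e-04), and no control level enters these differences, though the copper libraries are the same.

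That comparison of copper with arsenic called 12 genes (0.0759%), all higher with copper. The 9 that were not called against control had log2 fold changes of 0.36 to 1.90 there. Their edgeR adjusted p against control ran from 0.112 to 1.00. Both comparisons use the same copper libraries, so these values are no independent reading of the 9 genes.

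A single called fall did not depend on which controls were used for its size. Dapma7bEVm009328t1 was a low gene, with 20 to 44 counts in each control and 6 to 18 in each copper library. Its levels were 3.59, 2.15, 3.46 and 1.74 CPM in control replicates 1 to 4. They were 0.978, 0.455, 1.48 and 1.24 CPM in copper replicates 1 to 4, so the highest copper library lay just under the lowest control. The log2 fold change was -1.39 (SE 0.30, edgeR adjusted p 0.0497), and -1.42 (SE 0.34) without control replicates 1 and 4, where the adjusted p was 0.928. It passed in 6 of 22 alternatives (edgeR, DESeq2 or limma adjusted p between 0.0199 and 0.928).

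On the earlier days this gene showed no such difference. On day 1 controls averaged 2.16 ± 0.267 CPM and copper libraries 2.37 ± 0.355 CPM (SD, n = 4 libraries). On day 2 the means were 1.43 ± 0.451 and 1.28 ± 0.231 CPM. On day 4 the arsenic libraries were at 1.66 to 3.19 CPM and the mixture libraries at 1.67 to 2.30 CPM. Mixture against arsenic gave a log2 fold change of -0.36 (SE 0.28, edgeR adjusted p 0.716).

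The largest fitted fall was that of Dapma7bEVm016693t1. The gene reached the 14 counts needed for testing in 4 of the 48 libraries, control replicates 1 and 4 of day 4 among them, and was tested only through the libraries where it was high. Its counts in control replicates 1 to 4 were 1189, 1, 7 and 556, or 97.0, 0.0692, 0.606 and 48.3 CPM. In copper replicates 1 to 4 they were 0, 0, 2 and 0. Control replicates 2 and 3 were thus far nearer the copper libraries than the other controls. EdgeR gave an adjusted p of 4.20e-04 against all 4 controls. The ratio of summed counts was 959 with a counting interval of 265 to 7929 (95%, exact). Against control replicates 2 and 3 alone, 8 counts against 2, it was 8.38 with an interval of 1.67 to 81.0. These intervals cover counting error only. Fitted folds for so few counts depend on the prior count and are no bound. The edgeR adjusted p without control replicates 1 and 4 was 0.999.

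The other 6 falls of this kind had the same shape. In the 7 genes together, control replicate 1 ranged from 37.0 to 199.5 CPM by gene and control replicate 4 from 22.2 to 112 CPM. Control replicates 2 and 3 ranged from 0 to 8.65 CPM and from 0.606 to 5.97 CPM, and the 4 copper libraries from 0 to 11.3 CPM. The lower of control replicates 1 and 4 exceeded the highest of the other 6 libraries by 8.20 to 85.4 times. Control replicate 1 was higher than control replicate 4 in each of the 7 genes. In the fifth by size, control replicates 2 and 3 (1.66 and 0.952 CPM) also stood above the highest copper library, at 0.871 CPM; in the other 6 the groups overlapped.

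All 7 passed edgeR's test in the 48-library fit against the 4 controls, with adjusted p of 4.20e-04 to 0.0323. Like the largest fall, the third-largest met the rule for testing (14 counts in 4 libraries) only through control replicates 1 and 4 (787 and 378 counts). All 8 falls passed with the same 4 controls in the DESeq2 test and in edgeR with no filter or with upper-quartile factors. With DESeq2 size factors or a robust prior, edgeR kept 7 of the 8, and with the replicate number as a block 3. None of the 8 passed in limma voom, with or without library weights, or in edgeR on the day-4 or the 8 libraries alone. For the 7 falls high in control replicates 1 and 4, the 8-library fit gave edgeR adjusted p of 0.559 to 0.867. Without control replicates 1 and 4, edgeR called 0 falls and 1 rise (581 genes at an unadjusted p under 0.05 in both directions). DESeq2 and limma were not run on that set. The log2 fold changes of the 7 then ran from -2.82 to 0.39, and 2 of them turned positive. Leaving out control replicate 1 alone kept 3 of the 8 falls called, and leaving out control replicate 4 alone kept 7. With control replicates 2 and 3 left out instead, 14 of 15813 genes were called, 3 higher and 11 lower, 7 of the 8 falls among them. In 9 of these 11, control replicates 1 and 4 averaged over 4 times control replicates 2 and 3 (floor 0.3 CPM).

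**Figure D4:**
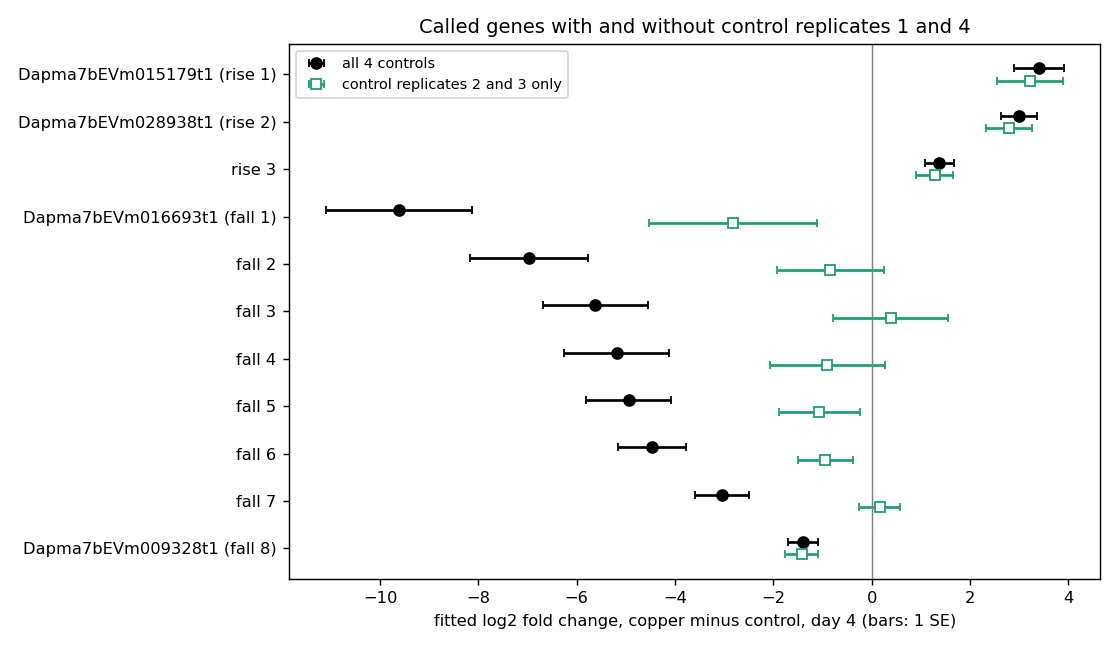
Fitted log2 fold change (copper minus control, day 4, bars 1 SE) of the 11 called genes with all 4 controls and with control replicates 2 and 3 only. The 3 rises and the smallest fall keep their size, and falls 1 to 7 move from between -9.62 and -3.04 to between -2.82 and 0.39.

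The summed level of the 7 genes shows how these libraries stand in the whole study. The sum was 744 CPM in control replicate 1 of day 4 and 393 CPM in control replicate 4. In mixture replicate 1 of day 4 it was 114 CPM. In the other 45 libraries, of every treatment and day, it ran from 6.58 to 17.9 CPM with a median of 11.6. The 4 copper libraries of day 4, which are among the 45, were at 10.2 to 16.6 CPM. Mixture replicate 1 ranked next after both controls among 48 libraries in each of the 7 genes. What the 3 libraries share was not tested.

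The set was also counted without the test. Of 15813 genes, 8 were at least 4 times higher in both control replicates 1 and 4 than in each of the other 6 libraries of the comparison, taking 3 counts as the floor. They were the 7 falls and 1 gene that was not called (edgeR adjusted p 0.738). In that gene mixture replicate 1 was the highest day-4 library, at 291 CPM against 131 CPM in control replicate 1. The same rule applied to control replicates 2 and 3 found 0 genes, and no other pair was counted. Control replicates 1 and 4 were picked out from these same data, so the counts describe the pair and are no independent support. The 8 genes made up 0.0875% of the reads of control replicate 1, so their share of a library was small.

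**Figure D5:**
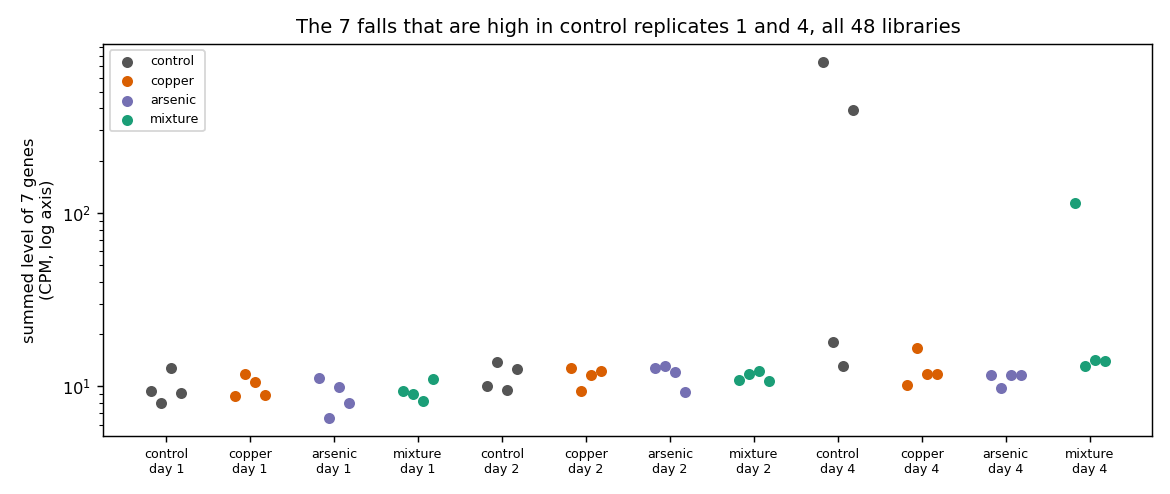
Summed level (CPM, log axis) of the 7 falls in each of 48 libraries, grouped by treatment and day. Control replicates 1 and 4 of day 4, at 744 and 393 CPM, and mixture replicate 1 of day 4, at 114 CPM, stand above the other 45 libraries, which lie between 6.58 and 17.9 CPM.

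Arsenic against control shares the controls, so its values are given side by side only; it called 10 genes (0.0632%), each lower. The 7 falls had log2 fold changes of -7.34 to -3.20 with arsenic, with edgeR adjusted p of 2.50e-04 to 0.0289. Dapma7bEVm009328t1, whose fold but not its call was kept without control replicates 1 and 4, was at -0.05 with arsenic (SE 0.28, edgeR adjusted p 0.969). Set directly against arsenic, the copper libraries differed in this gene by -1.34 (SE 0.30, edgeR adjusted p 0.0596) and in the 7 others by -2.28 to 1.78, with edgeR adjusted p of 0.687 to 0.952.

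Below the threshold the list thinned out quickly. The next gene had an edgeR adjusted p of 0.0547 with a log2 fold change of 0.62, and 15 genes had an adjusted p under 0.2. The 20 genes after the 11 were 10 higher and 10 lower with copper. In 495 genes (3.13%) the unadjusted p was under 0.05, 228 higher (1.44%) and 267 lower (1.69%). That total is below the share of 0.05 that a calibrated test gives if no gene changes. The 495 therefore cannot be read as a list of genes that respond to copper. All 4 copper libraries lay above all 4 controls in 234 genes (1.48%) and below them in 213 (1.35%).

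Wide separation was more often upward. The lowest copper library exceeded the highest control by over 1.5 times in 14 genes (0.0885%), and the reverse held in 2 (0.0126%). The 14 included the 3 called rises. Of the other 11, 10 had control means of 0.134 to 1.59 CPM, that is, few reads. The remaining gene stood at 61.2 to 110.2 CPM in controls and 186 to 233 CPM with copper and did not pass the test (log2 fold change 1.31, SE 0.30, edgeR adjusted p 0.112). In mixture against arsenic it differed by 1.49 on the log2 scale (edgeR adjusted p 0.0539). Of the 11 genes 4 were higher in the mixture than with arsenic, where 48.9% of all genes were.

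The 495 genes with an unadjusted p under 0.05 were also read on day 1 and day 2, in comparisons that share no library with that of day 4. The sign of the copper difference was the same on day 1 in 67.3% of them and in 54.9% of all tested genes. On day 2 it was the same in 57.2% against 50.6%. In mixture against arsenic on day 4 it was the same in 49.3% against 49.7%. By direction, it was the same there in 129 of the 228 higher genes (56.6%) and in 115 of the 267 lower genes (43.1%), where 48.9% of all tested genes were higher in the mixture. Over these 495 genes the fold changes correlated with those of the 3 other comparisons at r = 0.0330, -0.0462 and -0.221. Without the 8 genes of control replicates 1 and 4 the values were 0.0954, 0.0915 and 0.102. The points are genes that share libraries and depth, so these values are descriptions.

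The size of change that could have been missed depended on the level of a gene. Log2 fold changes had a median SE of 0.23, and the median change in either direction was 0.13. For 11496 genes (72.7%) the 95% interval lay within a 2-fold change in either direction, and for 7380 (46.7%) within 1.5-fold. Among the 7026 genes between 10 and 100 CPM the first share was 94.1%, and among the 1909 above 100 CPM 95.9%. Among the 5386 genes of 1 to 10 CPM it was 56.5%, and among the 1492 below 1 CPM 0.871%. For most genes above 10 CPM the interval therefore excluded a 2-fold change, and for the lowest genes it mostly did not. These intervals are not adjusted for the number of genes, so they do not say which changes would pass the test. A gene above 10 CPM with a log2 fold change of 1.31 did not pass (edgeR adjusted p 0.112).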

How the data were processed

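RNA was extracted from whole bodies and 48 libraries were sequenced. The authors deposited 1 table of whole-number counts per gene. The processing notes of the submitters list TopHat2 2.1.1, HTSeq and edgeR with no role or order. Build, gene models and strandedness of the counting are not given here. The file name calls the deposited counts normalised, but they are whole numbers with unequal library totals and were treated as raw.

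Genes with at least 14 counts in at least 4 libraries were tested, which kept 15813 of 16066. All 48 libraries in 12 groups were fitted in R 4.3.3 by edgeR 4.0.16 (TMM factors, quasi-likelihood F test, two-sided, Benjamini-Hochberg adjustment over all tested genes, threshold 0.05). The SE of a fold change is its size divided by the root of F. Fitted folds use a prior count of 0.125. Alternatives used DESeq2 1.42.0 and limma 3.58.1. Analyses that left out libraries were planned. Keeping the same genes in them, and adding a fit of 6 libraries (15811 genes), were choices made after seeing the data. The steps were also run on simulated counts, with an outcome not given here. Those counts held no excess confined to control replicates 1 and 4, so that run does not bear on such genes. Counts of the 12 replicate pairs differed beyond sampling noise, with chi-square values of at least 12.8 per degree of freedom.

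The libraries compared, the gene rule and the alternatives were chosen with earlier results of these data known. Named were the 2 largest called rises, the largest called fall and the called fall with the smallest p without control replicates 1 and 4. Gene lists (metallothioneins, copper handling and others) could not be applied, since no identifier matched.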

Additional observations from a re-analysis of the deposited data

Results flagged for a closer look

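Within groups of 4 libraries, a value was singled out when its gap to the nearest other library took up most of the range of the group (Dixon's criterion). Chance does this in about 1 in 20 groups, and it happened in 5 of 30 groups tested. Among library measures, control replicate 2 had the largest total of the controls, 15826553 counts (gap 0.897 of the range). Control replicate 1 had the smallest share of counts in its 10 most abundant genes among the controls, 12.8% (gap 0.914). The other 3 were levels of single genes that had few counts in the copper libraries. Copper replicate 3 was the only copper library with a count of Dapma7bEVm016693t1, 0.174 CPM (gap 1). It was also the lowest copper library for the third-largest fall, at 0.0871 CPM (gap 0.933). Copper replicate 1 was the lowest for the fifth-largest fall, at 0.0652 CPM (gap 0.863). Control replicates 1 and 4 were not singled out for the 7 genes they carry, since the criterion looks for a single library.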

How the results depend on the processing

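Against 11 called genes (3 higher, 8 lower), no filter gave 17 (13 lower, all 8 falls among them) and limma voom 2 (0 lower). Limma voom with library weights gave 7 higher and 3 lower (0 of the 8 falls among them). The DESeq2 test gave 5 higher and 11 lower (all 8 falls among them). The day-4 libraries alone gave 4 (0 lower) and the 8 libraries alone 4 (1 lower, none of the 8 falls). Leaving out single libraries of the comparison gave 5 to 13 genes, 2 to 3 of them higher and 3 to 10 lower. The call counts were 5 without control replicate 1, 7 without copper replicate 1 or 2, and 6 without copper replicate 4. Leaving out control replicates 1 and 4, with or without mixture replicate 1 of day 4, gave 1 higher and 0 lower. The 6 remaining libraries alone, a choice made after seeing the data, gave 2 genes and 0 lower. Without control replicates 1 and 4 the third-largest fall turned to 0.387, also without mixture replicate 1 (0.387), and to 0.411 in the 6 libraries alone. The seventh-largest fall turned to 0.164 in all 3 of these fits. For copper against control on days 1 and 2, DESeq2 called 1 and 2 genes where edgeR called 0. The replicate number as a block gave 5 genes (2 higher, 3 lower). The deviations of same-numbered copper and control libraries correlated at -0.110 to -0.0399, so these libraries showed no shared deviation. Such correlations cannot decide whether same-numbered libraries were handled together. Except where a count of libraries or genes was itself changed, the causes of these differences were not tested. Dapma7bEVm015179t1 and Dapma7bEVm028938t1 kept their direction in 22 of 22 alternatives and passed in 20 and 22.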
